A study of Mus musculus with 8 samples.

Results

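Primary hepatocytes of 2 separate cell pools were compared across the 6 arrays that could be matched by treatment, out of 8 arrays in the series. The members were the arrays whose titles name experiment 2 and the arrays whose titles name experiment 1, paired as DMSO with DMSO, glucagon with glucagon, and glucagon + GW4064 with glucagon + GW4064. The arrays of cells given GW4064 alone were left out of the test and are shown separately below. All cells came from male C57BL/6J mice and were cultured in DMEM containing 100 nM dexamethasone, a synthetic glucocorticoid. They were exposed for 6 h to DMSO (the solvent), to 100 nM glucagon (the pancreatic hormone of fasting, which acts on hepatocytes through cyclic AMP), or to glucagon together with 2 µM GW4064, a synthetic agonist of the bile acid receptor FXR. The cells of 3 mice were pooled for each experiment, and 2 technical replicates were pooled for each array of the Affymetrix mouse gene array MoGene 2.0 ST. Each experiment was therefore a single pool divided over the treatments. The p-values below compare these 2 pools against the spread of their difference between treatments, and they do not measure how much pools of hepatocytes vary in general. The mice of an experiment, their cell preparation, the culture and the array processing cannot be told apart in this design.

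Hepatocytes freshly isolated from the liver express the enzymes, plasma proteins and uptake transporters of the differentiated liver cell under the control of factors such as HNF4A, the FOXA proteins and CEBPA. On a culture dish these cells flatten, build actin stress fibres, activate the mechanosensitive co-activators YAP and TAZ, and lose part of the liver program, with cytochromes P450 and bile acid uptake carriers among the sensitive genes. Dense cultures of these oxygen-demanding cells can also become short of oxygen under the medium, which stabilises the hypoxia-inducible factors and their target genes.

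The arrays of both experiments carried the signature of hepatocytes. All 18 measured genes of a list of hepatocyte markers passed the filter on low signal, and their summed signal was 15.07 to 15.36 on the log2 scale in experiment 1 and 15.38 to 15.52 in experiment 2. Asgr2, a subunit of the asialoglycoprotein receptor, had signals of 6.29, 6.43 and 6.27 in experiment 1 and 6.90, 6.99 and 6.93 in experiment 2. Here and throughout, signals are log2 values in the order DMSO, glucagon, glucagon + GW4064. Albumin (Alb) had 12.99 in experiment 1 and 13.07 in experiment 2 with DMSO, and 12.97 and 13.11 with both agents. These signals lay close to the highest signal of any probe set on an array, 13.17 to 13.20, so a difference in albumin may be compressed. Male origin was visible in both pools, since Xist did not exceed 2.88 on any of the 6 arrays and the Y-linked genes Eif2s3y, Kdm5d and Uty had signals of 6.07 to 8.23. Array medians were 3.42 to 3.46, except 3.57 on the GW4064 array of experiment 2. Pearson correlations over genes were 0.984 to 0.997 between arrays of the same experiment and 0.988 to 0.993 between arrays of the same treatment in different experiments.

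Among 13441 genes tested with limma, 727 (5.41%) differed between the pools at an adjusted p below 0.05, and such genes are said to be called below. Of these, 383 (2.85%) were higher in experiment 2 and 344 (2.56%) were lower. The called higher genes had a median log2 difference of 0.64 and the called lower genes one of -0.53, while the median over all genes was -0.01. A difference of at least 2-fold was reached by 67 of the higher and 18 of the lower genes. All 727 called genes had the same sign in the 3 treatment pairs, as did 46.5% of all genes tested. The signals of the 3 arrays of one experiment lay wholly above those of the other for 596 of the 727, against 23.9% of all genes. A call rests on these same 3 pair differences and favours genes that differ alike in them. Both contrasts with all genes therefore give the calls no further support. The number of calls depended on the pairs used: 319 genes passed without the glucagon pair, 1344 without the DMSO pair and 22 without the glucagon + GW4064 pair. Of the 22, 19 were higher and 3 lower. With treatment left out of the model, 123 genes were higher and 31 lower.

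The largest difference was in Hamp, which encodes hepcidin, the liver hormone that limits iron export from gut cells and macrophages. Its signals were 7.86, 7.88 and 7.36 in experiment 1 and 10.44, 10.45 and 10.25 in experiment 2. All arrays of experiment 2 were higher, by 6.43-fold on average (log2 difference 2.68, SE 0.09, limma adjusted p = 0.00112). Slco1b2, a sinusoidal carrier that takes up bile acids, bilirubin and drugs, had signals of 3.98, 4.39 and 3.96 in experiment 1 and 6.92, 6.52 and 6.41 in experiment 2. It was 5.68-fold higher in experiment 2 (2.51, SE 0.15, adjusted p = 0.0021), and again no array of one experiment reached the other. Hsd3b5, a steroid-metabolising enzyme of adult male mouse liver, went from 3.61, 4.16 and 3.97 to 6.40, 6.50 and 5.71, a difference of 2.29 (SE 0.19, adjusted p = 0.00543).

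Fabp1, the fatty acid binding protein of liver cytosol, had signals of 6.51, 6.71 and 6.38 in experiment 1 and 8.63, 8.39 and 8.25 in experiment 2 (difference 1.89, SE 0.10, adjusted p = 0.00173). Rrm2, the regulatory subunit of ribonucleotide reductase, had 3.87, 4.38 and 4.37 against 6.64, 6.57 and 6.61 (2.40, SE 0.13, adjusted p = 0.00173). Both genes were separated between the experiments on every array. The other genes among the 15 largest positive differences were Defb1, an antimicrobial beta-defensin (2.21), the sulfotransferase Sult2a8 (1.88), the methyltransferase Inmt (1.84), the interleukin receptor Il17rb (1.74), the retinol and steroid dehydrogenase Hsd17b6 (1.68), choline dehydrogenase Chdh (1.57), the vasodilator peptide Adm (1.53), the fatty acid receptor Ffar4 (1.47), the aldehyde oxidase Aox3 (1.47) and the interferon-induced GTPase Iigp1 (1.46). In none of these 15 did the arrays of the experiments overlap. Hamp, Slco1b2, Rrm2, Hsd3b5, Defb1, Fabp1, Sult2a8, Inmt, Hsd17b6 and Aox3 were called under all 10 alternative settings, and Il17rb, Chdh, Adm, Ffar4 and Iigp1 were not.

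Among genes lower in experiment 2, Slc4a11, a membrane transporter of the bicarbonate carrier family, differed most. Its signals were 8.49, 6.25 and 6.49 in experiment 1 and 6.25, 4.34 and 4.30 in experiment 2, a 4.32-fold difference (log2 difference -2.11, SE 0.09, adjusted p = 0.00159). The ranges of the experiments overlapped, since the gene was also lower on the arrays with glucagon, and the separation lies within each treatment. Fam171b had 7.57, 6.40 and 6.54 in experiment 1 and 5.72, 4.48 and 4.40 in experiment 2 (-1.97, SE 0.09, adjusted p = 0.00159). Piezo1, the mechanically gated cation channel, had 7.53, 6.83 and 6.87 against 6.17, 5.52 and 5.62, and its difference was nearly the same in the 3 pairs (-1.31, SE 0.07, adjusted p = 0.00173). Both were lower on every array of experiment 2.

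Abcb1b, the mouse multidrug efflux pump that appears in cultured hepatocytes, had signals of 7.34, 6.37 and 6.37 in experiment 1 and 6.06, 4.62 and 4.50 in experiment 2 (-1.63, SE 0.13, adjusted p = 0.00483). Enah, an actin filament elongation factor, had 6.61, 4.58 and 4.51 against 4.50, 3.34 and 3.35 (-1.50, SE 0.19, adjusted p = 0.016). Krt20, a keratin of epithelial intermediate filaments, had 6.23, 5.38 and 5.05 against 4.55, 4.13 and 3.79 (-1.39, SE 0.11, adjusted p = 0.00483). These genes likewise did not overlap between the experiments. The remaining genes of the 15 largest negative differences were the GTPase-activating protein Syde1 (-1.43), Sema3e (-1.26), the cyclic GMP phosphodiesterase Pde5a (-1.25), the matrix protein Tinagl1 (-1.19), the efflux pump Abcc4 (-1.18), the nuclear receptor Nr4a2 (-1.11), the endothelial hyaluronan receptor Lyve1 (-1.11), the ectonucleotidase Nt5e (-1.11) and the macrophage growth factor Csf1 (-1.11). Of these 15 genes, the arrays overlapped for Slc4a11 and Csf1 only. Without the glucagon + GW4064 pair, Slc4a11, Fam171b and Piezo1 passed and the other 12 did not.

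**Figure D1:**
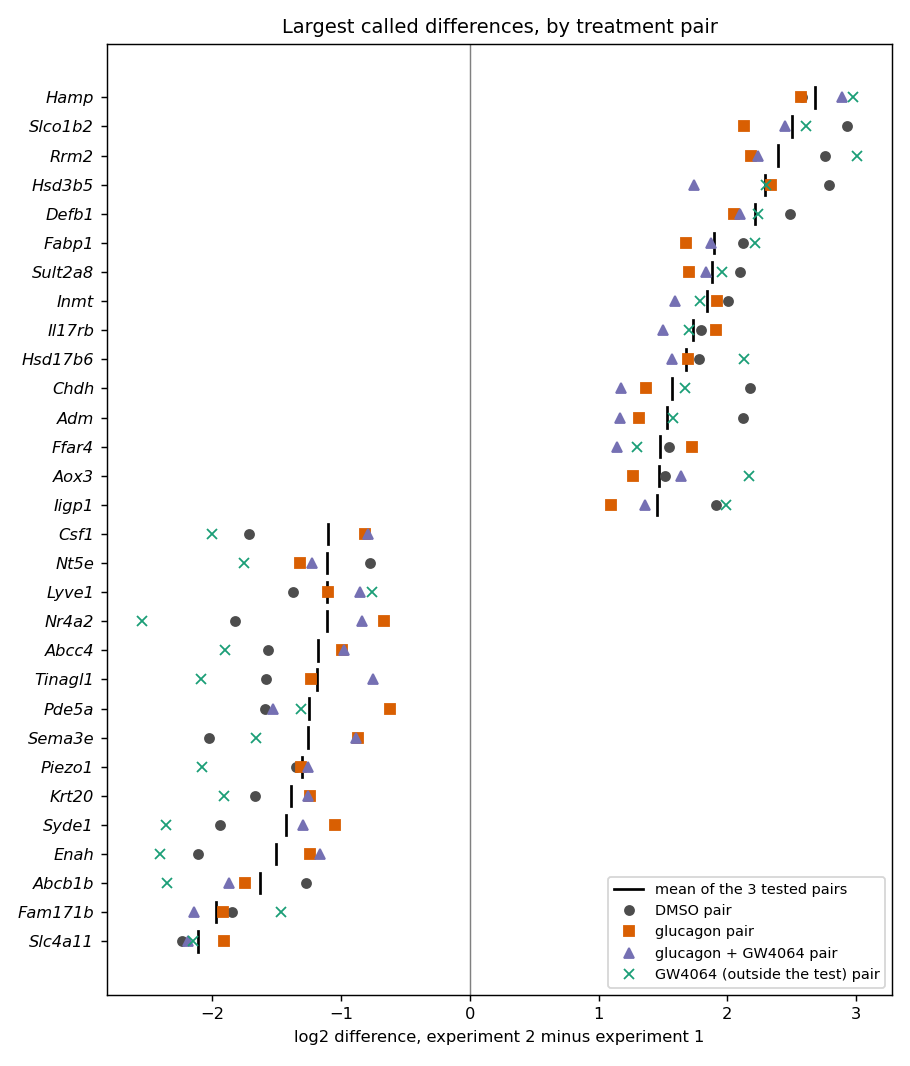
Log2 difference (experiment 2 minus experiment 1, x axis) of the 15 genes with the largest positive and the 15 with the largest negative called differences (y axis), with 1 symbol per treatment pair and a black bar for the mean of the 3 tested pairs. All symbols of a gene lie on the same side of 0, which the naming rule required for the 3 tested pairs. Enah, Sema3e, Nr4a2 and Csf1 are among the genes whose DMSO pair lies farther from 0 than the glucagon pairs, as is Abcc4.

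The promoters of Hamp, on the higher side, and of Syde1 and Krt20, on the lower side, are shown as examples of the sequence beside genes with large differences. Only promoters holding a searched motif could be chosen, so a match in those shown was certain. Each is the 250 bases before the RefSeq start of the gene (GRCm38.p6), 5′ to 3′ on the strand of the gene, with motif matches in capitals. Hamp lies at chr7:30944030-30944279 on the minus strand and its window holds TGAGTCA, the AP-1 motif. Syde1 lies at chr10:78591965-78592214 and Krt20 at chr11:99438154-99438403, both on the minus strand, and their windows hold TEAD motifs. The last capitals in the Krt20 window match the NRF2 motif.
Hamp: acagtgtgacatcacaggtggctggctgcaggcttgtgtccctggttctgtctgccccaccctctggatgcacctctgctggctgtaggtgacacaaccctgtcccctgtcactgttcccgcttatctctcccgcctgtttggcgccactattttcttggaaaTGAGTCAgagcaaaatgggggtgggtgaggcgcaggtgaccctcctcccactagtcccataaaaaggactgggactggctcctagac
Syde1: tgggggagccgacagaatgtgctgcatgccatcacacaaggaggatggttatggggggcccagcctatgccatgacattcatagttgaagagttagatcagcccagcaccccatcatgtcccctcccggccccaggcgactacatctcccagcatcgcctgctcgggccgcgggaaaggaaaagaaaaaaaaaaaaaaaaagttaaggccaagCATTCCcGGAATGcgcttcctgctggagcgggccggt
Krt20: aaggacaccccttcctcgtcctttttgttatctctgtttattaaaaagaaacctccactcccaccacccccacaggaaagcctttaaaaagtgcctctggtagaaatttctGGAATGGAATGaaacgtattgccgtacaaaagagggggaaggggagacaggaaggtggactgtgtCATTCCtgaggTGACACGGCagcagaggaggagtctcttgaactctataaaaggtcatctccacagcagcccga
The Hamp match starts 87 bases before the gene start.

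The motifs in these windows were searched as GGAATG (TEAD), TGANTCA (AP-1) and TGACNNNGC (NRF2), on both strands. The AP-1 motif is a palindrome, so its strands coincide, and where 2 matches overlap, as 2 TEAD motifs do in Krt20, both are in the capitals. All 3 are common sequences: over all 27025 windows of this length the shares were 12.6% for TEAD, 6.87% for AP-1 and 10.1% for NRF2. A match does not show that a factor binds, and the windows support no statement on the called genes.

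Gene lists by function are described next by their counts and medians, against 2.85% called higher and 2.56% called lower over all genes, and a gene may belong to several lists. Counts of positive or negative differences are to be read against 46.9% positive over all genes. Of 25 tested transporters of the sinusoidal and canalicular membrane, 6 were called higher and 3 lower (median difference 0.15). Slc10a1, the sodium-dependent bile acid carrier NTCP, had signals of 6.12, 6.45 and 6.35 in experiment 1 and 7.84, 7.73 and 7.54 in experiment 2, without overlap (1.39, SE 0.12, adjusted p = 0.00561). Slco1a1, an organic anion carrier, differed by 1.11 (adjusted p = 0.00871), and the glucose carrier Slc2a2, the half-transporter Abcg8 and Abcc6 were also called higher. The 3 called lower were the efflux pumps Abcb1b, Abcc4 and Abcg2 (-0.58). Abcb11, the bile salt export pump and a target of FXR, was not called (0.35, adjusted p = 0.192), with signals of 6.64, 5.52 and 6.07 in experiment 1 and 6.61, 6.19 and 6.48 in experiment 2. Without the glucagon + GW4064 pair 1 of the 6 and 0 of the 3 passed, and with treatment left out of the model 4 and 0.

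Called enzymes of drug metabolism were mostly higher in experiment 2. Of 44 tested conjugating and other xenobiotic enzymes, 15 (34.1%) were called higher and 1 lower (median 0.26), and of 36 cytochromes P450 of families 1 to 3, 7 were called higher and 2 lower (median 0.15). Ugt2b1, a glucuronosyltransferase, had signals of 8.60, 8.83 and 8.81 in experiment 1 and 9.92, 10.18 and 10.05 in experiment 2 (1.30, SE 0.08, adjusted p = 0.00173). Cyp2f2, a cytochrome P450 of periportal hepatocytes, had 7.74, 8.19 and 8.06 against 9.12, 9.17 and 9.14 (1.15, SE 0.10, adjusted p = 0.00626). Neither gene overlapped between the experiments. Cyp2e1, which oxidises ethanol, had 10.93, 10.99 and 10.96 against 11.59, 11.58 and 11.50 (0.59, SE 0.08, adjusted p = 0.0169). Cyp1a2, the aryl hydrocarbon receptor target that oxidises caffeine, ran the other way, with 9.06, 9.07 and 9.04 in experiment 1 and 8.51, 8.45 and 8.53 in experiment 2 (-0.56, SE 0.08, adjusted p = 0.0186), as did Aldh1a1, a retinaldehyde dehydrogenase (-0.63, adjusted p = 0.0129) and Cyp2c39 (-0.93). Cyp3a11 was not called (0.23, adjusted p = 0.224). Many of these genes have close paralogs, whose transcripts may share probes. Without the glucagon + GW4064 pair, 3 of the 15 enzymes (Sult2a8, Aox3 and Ugt2b1) and 0 of the 7 cytochromes passed, and with treatment left out of the model 11 and 5.

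Among secreted proteins, calls were found mainly in the clotting and complement systems. Of 29 tested complement and coagulation genes, 14 (48.3%) were called higher and 0 lower, with a median of 0.44, and 27 of the 29 differences were positive. F7, clotting factor VII, had signals of 6.16, 6.93 and 6.90 in experiment 1 and 7.31, 7.98 and 7.68 in experiment 2 (0.99, SE 0.10, adjusted p = 0.00857). C8a and C8b, chains of the membrane attack complex, differed by 0.74 (adjusted p = 0.0107) and 0.67 (adjusted p = 0.0123), and the fibrinogen chain genes Fga, Fgb and Fgg by 0.92, 0.66 and 0.54. Of 24 other plasma proteins 3 were called higher and 0 lower (median 0.11): Serpina6, the corticosteroid-binding globulin (1.12), Afm (0.65) and angiotensinogen Agt (0.43). Albumin differed by 0.09 (SE 0.07, adjusted p = 0.501). Among 19 lipoprotein genes, 4 were called higher, including Apoa5 (1.04), Apof (0.86) and the cholesterol-esterifying enzyme Lcat (0.68), and 2 lower, Tm6sf2 (-0.73) and Apoc2 (-0.44). With the glucagon + GW4064 pair left out none of these calls remained, and 9 of the 14 in complement and coagulation did without the glucagon pair or with treatment left out of the model.

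Of 48 genes of the urea cycle and amino acid breakdown, 17 (35.4%) were called higher and 0 lower (median 0.27). Hpd, the second enzyme of tyrosine breakdown, had signals of 7.98, 8.52 and 8.27 in experiment 1 and 9.33, 9.90 and 9.54 in experiment 2 (1.33, SE 0.08, adjusted p = 0.00173). Arg1, the arginase of the urea cycle, had 8.64, 10.41 and 9.98 against 10.05, 11.45 and 11.22. Its arrays overlapped, with higher signals on the glucagon arrays of each pool, and the difference within treatments was 1.23 (SE 0.10, adjusted p = 0.00483). The histidine-degrading enzymes Hal (1.20) and Uroc1 (1.18), tryptophan dioxygenase Tdo2 (1.01) and the methionine adenosyltransferase Mat1a (0.92) were called as well. Cps1, which admits ammonia to the urea cycle, had 11.23, 11.87 and 11.62 against 11.33, 11.83 and 11.77 and was not called (0.07, SE 0.08, adjusted p = 0.641). With the glucagon + GW4064 pair left out only Hpd passed in this list, and with treatment left out of the model 2 genes did.

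Of 21 gluconeogenesis and glycogen genes, 6 were called higher and 1 lower (median 0.33). Gys2, the liver glycogen synthase, had signals of 5.03, 6.07 and 5.78 in experiment 1 and 6.64, 7.09 and 7.19 in experiment 2 (1.35, SE 0.12, adjusted p = 0.00784). The glucose-6-phosphate carrier Slc37a4 (0.94) and the glycogen-targeting subunit Ppp1r3b (0.88) were also higher, and the glucokinase regulator Gckr was lower (-0.51). The glucagon targets Pck1 and G6pc were not called (0.57, adjusted p = 0.182, and -0.26, adjusted p = 0.317). In the DMSO pair, a single array of each pool, Pck1 had 3.49 in experiment 1 and 4.79 in experiment 2. The first value lay near the filter level of 3.13 to 3.17. The cells given glucagon had 9.28 and 9.39 in experiment 1 and 9.51 and 9.58 in experiment 2. The glucagon receptor gene Gcgr differed by 0.28 (adjusted p = 0.111). Fatty acid oxidation had 3 of 29 genes called higher (Fabp1, Acaa2 and Acaa1b; median 0.05) and lipogenesis and cholesterol synthesis 2 higher and 2 lower of 32, with Thrsp at 1.09 and the sterol regulator Srebf2 at -0.51. Bile acid synthesis had 1 of 13 called, Scp2 (0.64). With the glucagon + GW4064 pair left out Fabp1 alone passed in these lists.

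Of 28 transcription factors of the liver program tested, 0 were called by limma, and the median difference was 0.06. In limma's test 8 of the 28 had an unadjusted p below 0.05. Over all genes tested 3219 of 13441 did, and the 8 are to be read against that share. The count of 0 depended on the setting: 3 higher and 3 lower were called without the DMSO pair, 3 higher and 1 lower with an intensity trend and robust prior, 2 higher with the filter at the 60th percentile and 1 higher after quantile normalization. The median was -0.05 with all 8 arrays. Hnf4a had signals of 7.63, 8.10 and 8.19 in experiment 1 and 8.62, 8.60 and 8.54 in experiment 2. The arrays did not overlap, but the difference of 0.62 (SE 0.13) had an adjusted p of 0.0555. Cebpa ran the opposite way without overlap, with 6.88, 7.09 and 7.11 against 6.68, 6.37 and 6.35 (-0.56, SE 0.13, adjusted p = 0.0592). Foxa2 (-0.18, adjusted p = 0.385) and Nr1h4, which encodes FXR (0.01, adjusted p = 0.964), overlapped between the experiments. Of the 18 hepatocyte markers, 7 were called higher and 0 lower (median 0.31): Slc10a1, Arg1, Cyp2f2, the asialoglycoprotein receptor genes Asgr1 (0.67) and Asgr2 (0.61), Fgb and Cyp2e1. Leaving out the glucagon + GW4064 pair removed the 7 calls, and leaving out the glucagon pair removed none.

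**Figure D2:**
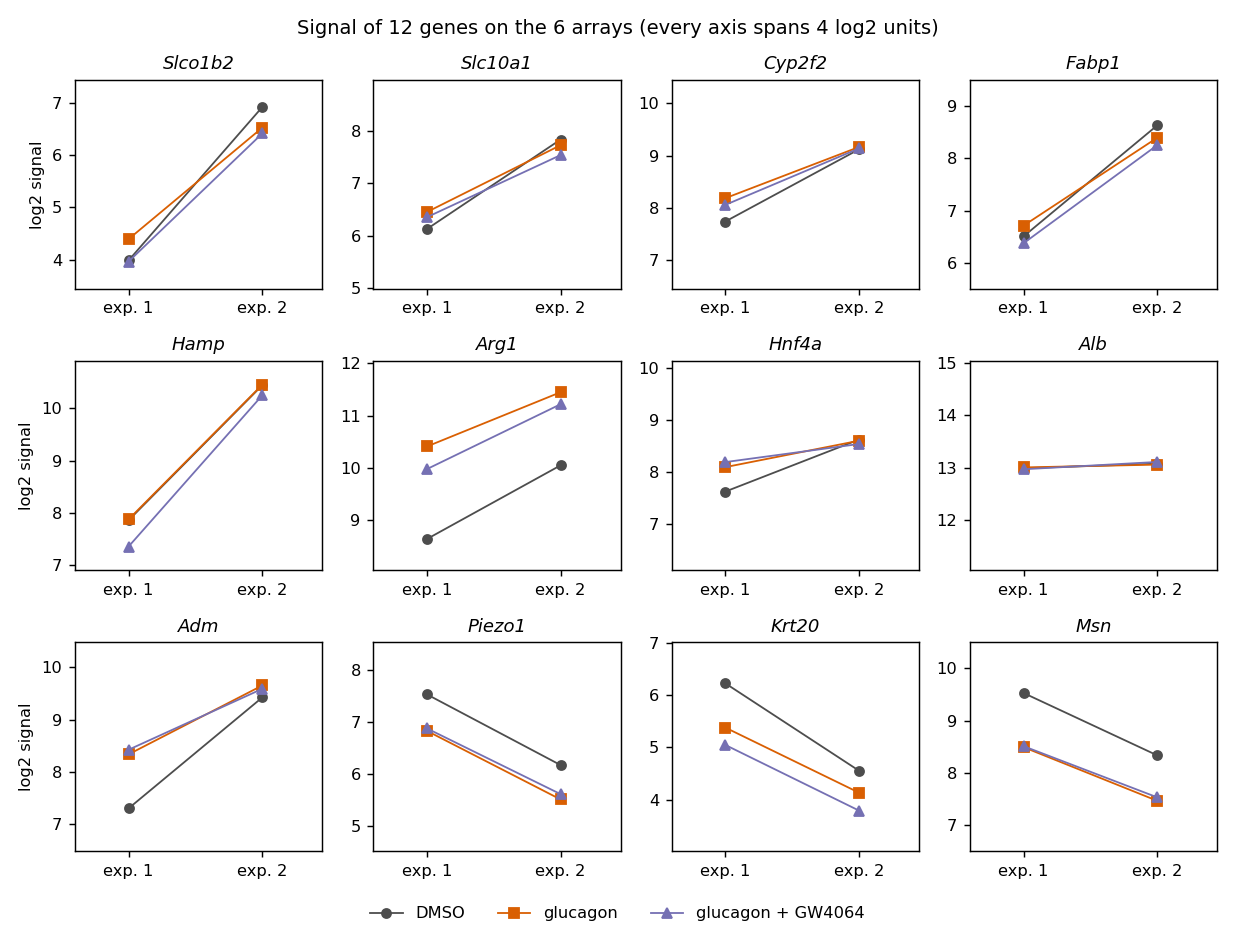
Log2 signal (y axis) of 12 genes on the arrays of experiments 1 and 2 (x axis), joined by treatment. Slco1b2, Slc10a1, Cyp2f2, Fabp1, Hamp and Adm were higher and Piezo1, Krt20 and Msn lower in experiment 2 in all 3 treatments; Arg1 differed in parallel at different levels, while Hnf4a and Alb were not called.

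Genes called higher included markers of both ends of the liver lobule. Of 18 tested periportal genes 7 were called higher and 0 lower (median 0.29), and of 22 pericentral genes 5 were called higher and 2 lower (median 0.27). The periportal genes included Cyp2f2, Hal, Uroc1, Arg1 and Etnppl, an ethanolamine-phosphate lyase (1.09, adjusted p = 0.0203). The pericentral genes included Slco1b2, Oat (0.87), Gulo (0.76) and Cyp2e1, with Cyp1a2 and Aldh1a1 on the lower side. Glul, the glutamine synthetase of the cells around the central vein, had signals of 6.46, 6.07 and 6.10 in experiment 1 and 6.67, 6.37 and 6.30 in experiment 2 and was not called (0.24, adjusted p = 0.127). Of 24 male-biased or growth hormone-dependent genes, 7 were called higher, led by Hsd3b5, and 1 lower, the cytokine signalling inhibitor Socs2 (-0.53), with a median of 0.25. Leaving out the glucagon + GW4064 pair, 0 of the 7 periportal, 1 of the 5 pericentral (Slco1b2) and 1 of the 7 male-biased genes (Hsd3b5) passed, and leaving out the glucagon pair 5, 4 and 4.

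Called genes of the cytoskeleton were lower in experiment 2. Of 42 tested genes of the actin list 0 were called higher and 8 lower, with a median of -0.20, and 31 had a negative difference. Msn, moesin, which ties actin to the cell membrane, had signals of 9.53, 8.49 and 8.51 in experiment 1 and 8.34, 7.47 and 7.53 in experiment 2 (-1.07, SE 0.08, adjusted p = 0.00483). Tpm2, a tropomyosin, had 7.59, 7.35 and 7.38 against 6.61, 6.59 and 6.51 (-0.87, SE 0.08, adjusted p = 0.00821). Neither overlapped between the experiments. Acta1 (-0.79), the calponins Cnn1 (-0.68) and Cnn2 (-0.54), annexin Anxa3 (-0.58), transgelin 2 (Tagln2, -0.54) and the tubulin Tubb2a (-0.44), which this list also holds, were called, while Acta2 was not (-0.16, adjusted p = 0.341). Without the glucagon pair 5 of the 8 passed, without the glucagon + GW4064 pair 0 did, and with treatment left out of the model 1 did.

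The list of YAP and TAZ targets, which also holds the factor genes Yap1, Wwtr1, Tead1 and Tead4, did not move as one. Of its 24 tested genes, 0 were called higher and 4 lower, Nt5e, Crim1 (-0.73), Wwtr1 (-0.61) and Ajuba (-0.56), and the median was -0.21. By pair the median was -0.44 with DMSO, -0.04 with glucagon and -0.17 with glucagon + GW4064. In the GW4064 pair, outside the test, it was -0.66. Wwtr1 encodes TAZ itself, with signals of 7.32, 6.54 and 6.47 in experiment 1 and 6.76, 5.84 and 5.91 in experiment 2. The canonical targets Ccn1 and Ccn2 were not called (0.02, adjusted p = 0.967, and 0.36, adjusted p = 0.398). Ccn2 had 10.00, 8.21 and 8.47 in experiment 1 and 9.64, 9.14 and 8.98 in experiment 2, so it was lower in the DMSO pair and higher in both pairs with glucagon. In the matrix and mesenchymal list 1 of 33 genes was higher, the collagen-crosslinking enzyme Lox (0.96), and 3 were lower, the urokinase receptor Plaur (-0.88), Sparc (-0.58) and S100a11 (-0.55), and Vim was not called (-0.13, adjusted p = 0.601). Among 14 biliary and keratin genes Krt20 and the integrin Itga3 (-0.80) were lower and the claudin Cldn4 was higher (0.51). Fetal hepatocyte genes gave 2 higher, Hk2 and Pkm, and 1 lower, Sox4 (-0.88), of 14, and Afp was not called (-0.22, adjusted p = 0.183). Leaving out the glucagon + GW4064 pair, none of these genes passed, and without the glucagon pair 2 of the 4 YAP and TAZ genes did.

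**Figure D3:**
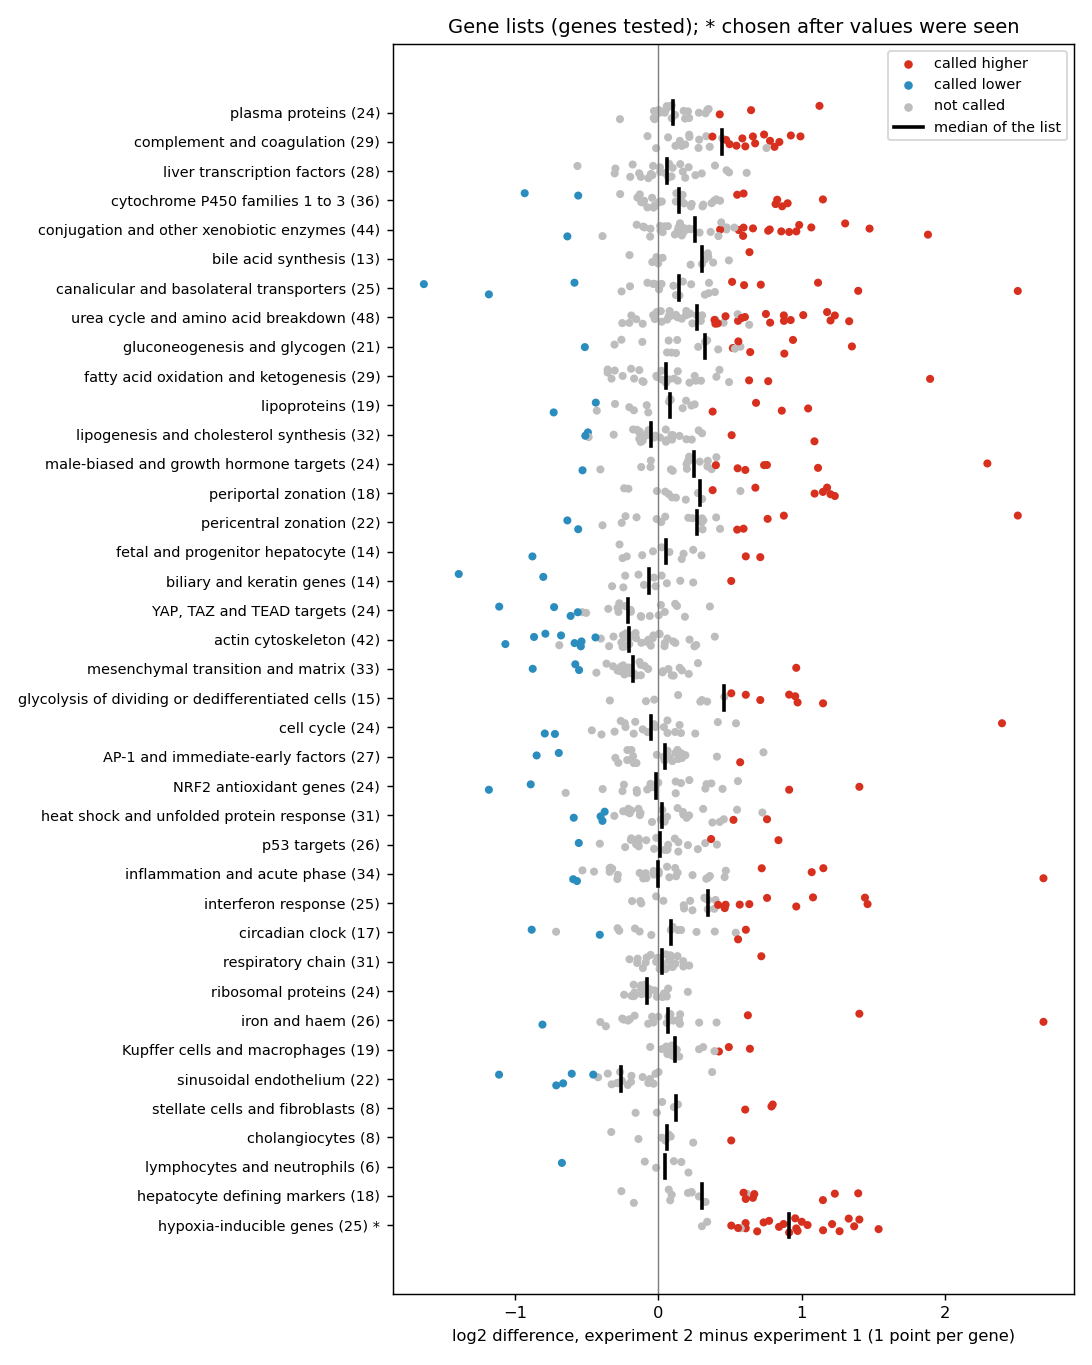
Log2 difference (x axis) of each tested gene in 39 gene lists (y axis, number of tested genes in brackets), with called higher genes in red, called lower genes in blue, others in grey, and a black bar at the median. Complement and coagulation, glycolysis and interferon lists have medians of 0.44, 0.46 and 0.35; the endothelial, actin and YAP lists have medians of -0.26, -0.20 and -0.21.

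Glycolytic genes, kept here in a list of features of dedifferentiated or dividing cells, had 7 of 15 members called higher and 0 lower (median 0.46). Pfkl and Pfkp, subunits of phosphofructokinase, had differences of 0.95 (adjusted p = 0.0203) and 0.91 (adjusted p = 0.0202). The lactate exporter Slc16a3 had signals of 5.37, 6.37 and 6.20 in experiment 1 and 7.10, 7.31 and 6.97 in experiment 2 (1.15, SE 0.18, adjusted p = 0.0264). Pfkfb3 (0.97), Pkm (0.71), Hk2 (0.61) and the glucose carrier Slc2a1 (0.51) were called too, and Ldha (0.34, adjusted p = 0.0563) and Pgk1 (0.30, adjusted p = 0.0816) were not. Since several of these and Adm are known targets of the hypoxia-inducible factors, a list of 32 such targets was drawn up after these values had been seen. Of the 25 tested, 22 were called higher and 0 lower, with a median of 0.91, and the 25 differences were positive. As the list was chosen with its leading genes in view, these figures are a description only.

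Among those targets, Adm had signals of 7.30, 8.34 and 8.42 in experiment 1 and 9.42, 9.65 and 9.59 in experiment 2 (1.53, SE 0.18, adjusted p = 0.0139). Ndufa4l2, a mitochondrial protein, had 6.36, 6.75 and 6.57 against 7.80, 7.90 and 7.78 (1.26, SE 0.09, adjusted p = 0.00375). Vegfa, the endothelial growth factor, had 9.84, 10.05 and 10.05 against 10.57, 10.78 and 10.66 (0.69, SE 0.08, adjusted p = 0.0119). The arrays of the experiments did not overlap for any of them. The collagen-modifying enzymes Plod2 (1.33), P4ha2 (1.00) and P4ha1 (0.87), the oxygen sensors Egln3 (1.21) and Egln1 (0.77), the mitophagy receptor Bnip3 (1.04), the mTOR inhibitor Ddit4 (1.37) and the kinase Pdk1 (0.84) were also called. The median of the list was 1.20 in the DMSO pair, 0.76 in each pair with glucagon and 0.95 in the GW4064 pair. Without the glucagon pair 19 of the 22 passed, with treatment left out of the model 11 did, and without the glucagon + GW4064 pair only Plod2 did. Neither oxygen nor cell density is recorded in the labels, and their part in these differences was not tested.

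Of 25 tested interferon-induced genes, 10 were called higher and 0 lower (median 0.35). Iigp1 had signals of 4.77, 5.60 and 5.34 in experiment 1 and 6.68, 6.70 and 6.70 in experiment 2 (1.46, SE 0.15, adjusted p = 0.0107). Usp18, which removes the ISG15 modifier, had 6.44, 6.84 and 7.05 against 7.66, 7.77 and 8.13 (1.08, SE 0.09, adjusted p = 0.00543). Mx2 was 1.44 higher (adjusted p = 0.0123), but 2 of its 3 signals in experiment 1 lay below the filter level of their arrays, so that size may be compressed. The inflammation and acute phase list did not share a direction, with 4 of 34 higher, 2 lower and a median of 0.00. Its higher genes were Hamp, Saa4 (1.15), Orm3 (1.07) and Crp (0.72), and its lower genes Apcs (-0.59) and Nfkb2 (-0.57). Of the 10 interferon genes 6 passed without the glucagon pair, 4 with treatment left out of the model and 0 without the glucagon + GW4064 pair, where Hamp alone of the acute phase genes passed.

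In the iron and haem list, 3 of 26 genes were called higher and 1 lower. Beside Hamp these were Hmox1, the haem oxygenase that releases iron from haem, and Alas1, which opens haem synthesis (0.62), and on the lower side the transferrin receptor Tfrc (-0.81). Hmox1 had signals of 8.66, 10.00 and 10.25 in experiment 1 and 10.86, 11.09 and 11.17 in experiment 2 (1.40, SE 0.24, adjusted p = 0.0321). Tfrc had 8.38, 7.99 and 8.08 against 7.06, 7.38 and 7.57 (-0.81, SE 0.16, adjusted p = 0.046). Both were separated between the experiments on every array. In the NRF2 list, which Hmox1 also belongs to, 2 of 24 genes were higher and 2 lower, including the cystine carrier Slc7a11 (-0.89). Hamp alone passed in these lists without the glucagon + GW4064 pair.

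Stress, growth and clock lists held calls in both directions. Heat shock and unfolded protein genes gave 2 higher and 4 lower of 31, p53 targets 2 higher and 1 lower of 26, and immediate-early genes 1 higher and 2 lower of 27. In the heat shock and unfolded protein list the higher genes were Creld2 (0.76) and Pdia6 (0.52). Its lower genes were the amino acid response genes Psat1 (-0.59) and Asns (-0.40), with Atf5 (-0.39) and Hspb1 (-0.37). In the cell cycle list Rrm2 stood alone on the higher side of 24 tested genes, with Cdk6 (-0.79) and Mcm4 (-0.72) lower, and the proliferation marker Mki67 did not exceed 2.92 on any of the 6 arrays. Its partner subunit Rrm1 was not called (0.41, adjusted p = 0.0576). Of 17 clock genes, Cry2 (0.61) and Bhlhe40 (0.56) were higher and Npas2 (-0.88) and Arntl (-0.41) lower. The respiratory chain list had 1 of 31 called, its regulator Ppargc1a (0.72). The ribosomal protein list had 0 of 24 called by limma and 1 at an unadjusted p below 0.05. Rrm2 was the only gene of these lists to pass without the glucagon + GW4064 pair.

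Markers of other liver cells were measured as a check on the composition of the pools. In bulk RNA, fewer cells of a type and less RNA per cell cannot be told apart. Of 34 markers of sinusoidal endothelium, 12 were below the filter, including Tek, Clec4g and Plvap. Of the 22 tested, 0 were called higher and 5 (22.7%) lower, 2 had a positive difference, and the median was -0.26. Lyve1 had signals of 7.57, 7.30 and 7.39 in experiment 1 and 6.19, 6.19 and 6.54 in experiment 2 (-1.11, SE 0.11, adjusted p = 0.00969). Cdh5, the cadherin of endothelial junctions, had 6.61, 6.94 and 6.91 against 6.21, 6.29 and 6.15 (-0.60, SE 0.09, adjusted p = 0.0251). Neither overlapped between the experiments, and Oit3 (-0.71), Eng (-0.66) and Fcgr2b (-0.45) were called as well. The summed signal of the 22 genes was 9.23 to 9.29 in experiment 1 and 8.71 to 8.78 in experiment 2. Their median signal was 3.86 to 4.00 and 3.62 to 3.69. Without the glucagon pair 3 of the 5 passed, and without the glucagon + GW4064 pair 0 did.

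Of 19 tested macrophage markers 3 were called higher and 0 lower (median 0.11), namely H2-Ab1 (0.64), Cd68 (0.49) and Marco (0.42), and 10 markers, among them Cd5l, Cd163 and Lyz2, were below the filter. The summed signal of the 19 tested was 10.64 to 10.72 in experiment 1 and 11.03 to 11.13 in experiment 2. Their median signal was 3.28 to 3.43 and 3.34 to 3.83, near the filter level of 3.13 to 3.17. The sum is therefore carried mainly by the brightest markers. Of 27 stellate cell and fibroblast markers on the array 19 were below the filter, including Des, Lrat and Col1a1, and of the 8 tested Dcn (0.80), Reln (0.79) and Rgs5 (0.61) were called higher. The 8 tested genes had a summed signal of 7.22 to 7.31 against 7.66 to 7.71, and a median signal of 3.74 to 3.92 against 4.08 to 4.21. For cholangiocytes 1 of 8 tested genes was higher, and Krt19 was not called (-0.14, adjusted p = 0.374). For lymphocytes and neutrophils 1 of 6 was lower, the chemokine Ccl5 (-0.67), while 19 were below the filter. The red blood cell list had 1 tested gene, which was not called. Without the glucagon pair the macrophage calls were 0 and the stellate cell calls 3, and without the glucagon + GW4064 pair both were 0. The part of these other cells in the differences above was not tested.

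**Figure D4:**
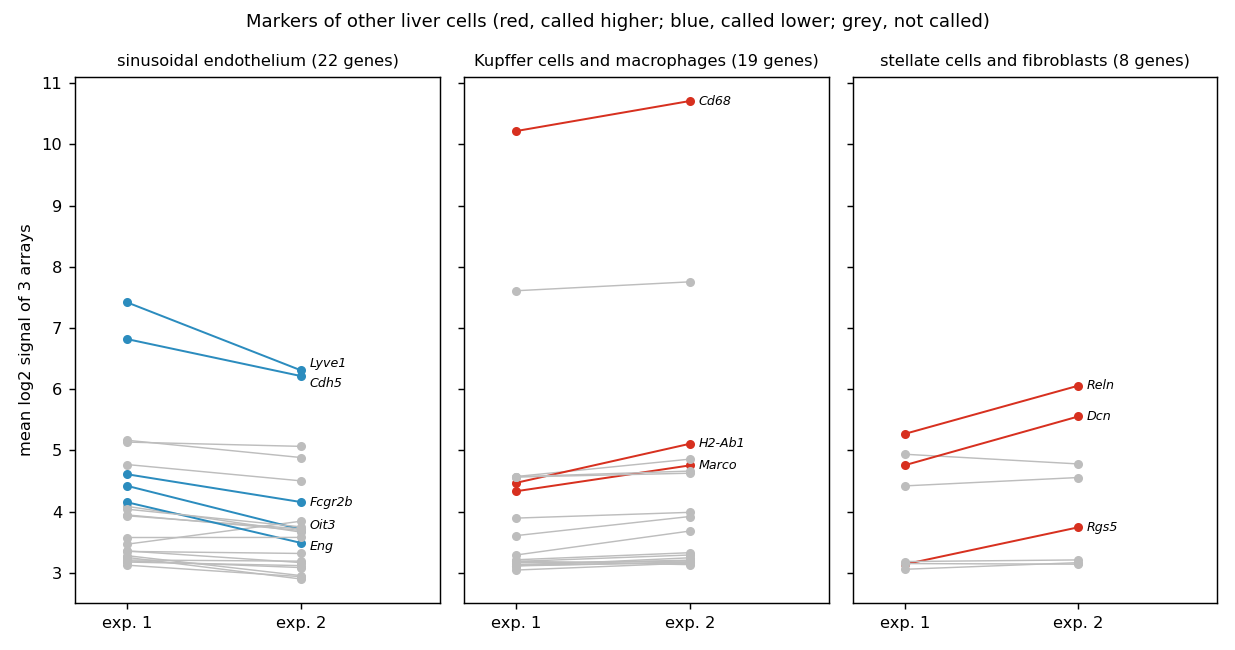
Mean log2 signal of 3 arrays (y axis) in experiments 1 and 2 (x axis) for each tested marker of sinusoidal endothelium, macrophages and stellate cells, with called genes named. The 5 called endothelial markers go down to experiment 2, and the 3 called macrophage and 3 called stellate markers go up.

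The arrays of cells given GW4064 alone came from the same 2 pools but did not enter the test. In this pair 350 of the 383 called higher genes and 335 of the 344 called lower genes had the same sign as in the test. That was 94.2% of the called genes, against 65.4% of all genes tested. The median difference was 0.64 for the called higher genes, -0.71 for the called lower genes and -0.08 for all genes. Hamp differed by 2.98, Slco1b2 by 2.61, Slc10a1 by 1.91, Piezo1 by -2.08 and Krt20 by -1.91 in this pair. Among named genes called in the test the sign turned for Cyp2a4 (0.83 in the tested pairs and -0.49 here), Hk2 (0.61 and -0.41), Cldn4 (0.51 and -0.57), Fos (0.57 and -0.23) and Ifit1 (0.76 and -0.26). The GW4064 array of experiment 2 stood apart from the other 7: its median for 1405 olfactory and vomeronasal receptor probe sets, which have low signal in liver cells, was 3.25 against 2.95 to 2.98. Because the pools are the same, this pair shows the difference in another dish of each pool and is no further replicate of the experiments.

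**Figure D5:**
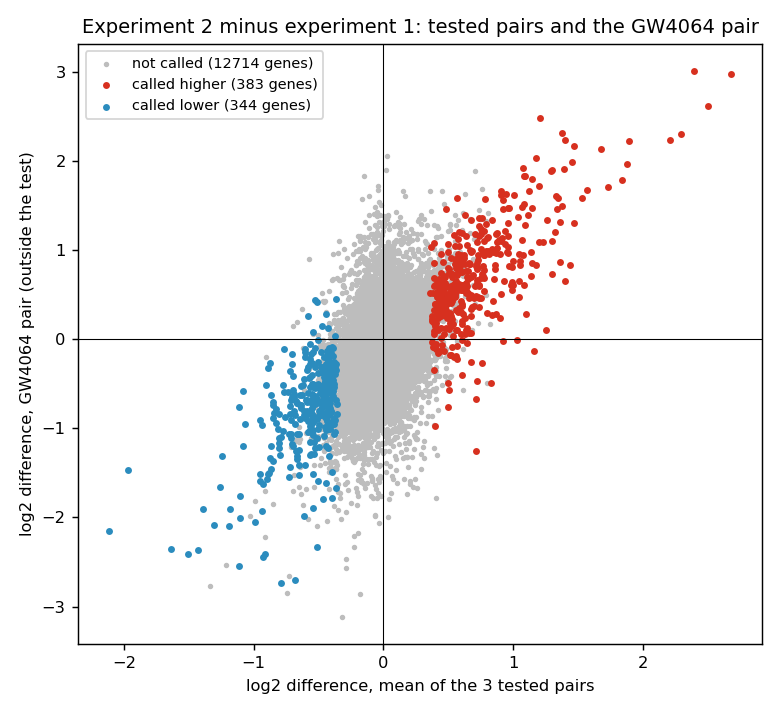
Log2 difference between experiments in the GW4064 pair (y axis) against the mean of the 3 tested pairs (x axis), with 1 point per gene. Of the 383 called higher genes (red) 350 lie above 0 on the y axis, and of the 344 called lower genes (blue) 335 lie below it.

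Whether the difference between pools depended on glucagon was tested by an interaction, the mean difference of the 2 pairs with glucagon minus that of the DMSO pair. Of 13441 genes 105 (0.781%) passed, 54 with a positive and 51 with a negative value, and 8 of them were also called between the pools. Hbegf, an epidermal growth factor receptor ligand, had signals of 7.68, 4.75 and 5.10 in experiment 1 and 6.58, 5.33 and 5.73 in experiment 2. It was lower in experiment 2 with DMSO and higher with glucagon (interaction 1.70, SE 0.16, limma adjusted p = 0.0156). Thbs1, thrombospondin 1, had 9.35, 7.46 and 7.82 against 7.85, 7.63 and 7.86 (1.61, SE 0.16, adjusted p = 0.0156). The cytoskeletal cofactor Fhl2 had 8.92, 6.82 and 7.01 against 7.66, 7.19 and 7.23 (1.55, SE 0.16, adjusted p = 0.0156). All 3 were highest on the DMSO array of experiment 1.

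Irs1, the insulin receptor substrate, was the reverse, with 3.29, 4.78 and 4.80 in experiment 1 and 3.95, 3.85 and 3.96 in experiment 2 (interaction -1.54, SE 0.16, adjusted p = 0.0156). The signal of 3.29 lay near the filter level of 3.13 to 3.17. Terc, the telomerase RNA, had an interaction of the same size (-1.54, SE 0.16, adjusted p = 0.0156), with 0.50 as its difference in the DMSO pair and -1.05 and -1.04 with glucagon. Both genes were higher on the glucagon arrays than on the DMSO array in experiment 1, whereas Irs1 spanned 3.85 to 3.96 in experiment 2. Among called genes, Hmox1 differed by 2.20 in the DMSO pair and by 1.09 and 0.92 with glucagon, and Enah by -2.11 and by -1.24 and -1.16. Over the 383 called higher genes the median difference was 0.74 in the DMSO pair, 0.59 in the glucagon pair and 0.57 in the glucagon + GW4064 pair, and over the 344 called lower genes -0.53, -0.52 and -0.49. The interaction rests on 1 DMSO pair and 1 residual degree of freedom. With all 8 arrays 0 genes passed limma's test (1377 at an unadjusted p below 0.05), with quantile normalization 0 did (1829), and with an intensity trend and robust prior 699 did.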

How the data were processed

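Gene expression was measured on 8 single-channel Affymetrix MoGene 2.0 ST arrays, 6 of which entered the comparison, with 300 ng of total RNA per labelling per the labels' protocols. The log2 signal values were deposited by the authors after processing in GeneSpring, per the series' design text; how background and probe summaries were treated is not stated in the labels, and the log2 scale was read from the range of the values. They were used without further normalization. The number of arrays limits the precision.

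The table has 41345 probe sets, of which the platform annotation gives 23521 a single gene symbol, 1814 several and 16010 none. Of the single symbols 23328 were found in RefSeq by gene identifier, 193 were not and 0 had changed. Probe sets above the 40th percentile of their array on at least 2 of the 6 arrays were kept (26422, of which 14211 had a single symbol). Where a gene had several kept probe sets (598 genes) the brightest on average stood for it, leaving 13441 genes. No per-sample column was left unused.

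Each gene was fitted in limma 3.58.1 (R 4.3.3) with treatment and experiment as terms (2 residual and 4.188 prior degrees of freedom). Two-sided p-values had the Benjamini-Hochberg adjustment across the genes tested, and 0.05 was the limit for a call. The SE is limma's moderated SE of the mean of 3 pair differences. Its variance is drawn towards a prior common to all genes. It can therefore be smaller or larger than the spread of the 3 differences alone would give. The pairing by treatment follows the labels, since both experiments had the same treatments. The steps were tested on simulated data (20 draws, 200 changed genes of 13441, for experiment 2 minus experiment 1): the share recovered was 41.0% for a 1.5-fold, 70.8% for a 2-fold and 94.1% for a 4-fold change, and 79 of 2831 calls were false. Gene lists were described by counts and medians without a set test. Summed signals are log2 of the sum of the linear signals of a list. Promoter windows came from RefSeq (GRCm38.p6), and the first window listed per gene was searched. Python 3.11.15, pandas 2.3.3 and matplotlib 3.10.9 were used.

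The comparison, gene lists and naming rule were chosen with earlier results of these data known, and the list of hypoxia targets was added after the values here were seen. The rule named the 15 largest differences in each direction with the same sign in 3 pairs (leaving out predicted genes and olfactory receptors), up to 4 genes per list by smallest p, a panel of 26 genes, up to 5 interaction genes, and promoters of up to 2 of the largest differences in each direction with a motif. Other list members are given as counted members of their lists. A panel gene, and a motif with the promoter it selected, are not reported here, so the motif search is given in part. Alternatives were no treatment term, all 8 arrays, quantile normalization, no filter, a filter at the 60th percentile, an intensity trend with robust prior, the mean of probe sets, and each pair left out.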

Additional observations from a re-analysis of the deposited data

Results flagged for a closer look

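The median signal of olfactory and vomeronasal receptor probe sets on the GW4064 array of experiment 2, outside the comparison, was 3.25, above the other 7 arrays (2.95 to 2.98).

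For 12 named genes the difference between the pools itself depended on glucagon by limma's interaction test. The interaction was positive for Hbegf (1.70), Thbs1 (1.61), Fhl2 (1.55), Sema3e (1.15), Nr4a2 (1.07), Csf1 (0.91) and Enah (0.91). It was negative for Irs1 (-1.54), Terc (-1.54), Hmox1 (-1.19), Egln3 (-1.09) and Pck1 (-1.08). In Sema3e, Nr4a2, Csf1, Enah, Hmox1 and Egln3 the difference was larger in the DMSO pair than in either pair with glucagon, with the same sign in the 3 pairs. All of them rest on the 1 DMSO pair, and none passed with all 8 arrays or with quantile normalization.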

How the results depend on the processing

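The paired model is the one reported, with treatment as the replicate block. With no replicate block 154 genes were called, 123 higher and 31 lower, and all 154 were among the 727. With an intensity trend and robust prior 1282 were called, 622 higher and 660 lower. Leaving out 1 pair gave 22 to 1344 calls, 19 to 625 higher and 3 to 719 lower, the fewest without the glucagon + GW4064 pair, which leaves 1 residual degree of freedom, as does leaving out any other pair. The share of higher genes among calls was 52.7% in the reported model, 79.9% with no replicate block, 65.5% without the glucagon pair and 86.4% without the glucagon + GW4064 pair. With all 8 arrays, quantile normalization, no filter, a filter at the 60th percentile or the mean of probe sets, the calls numbered 700 to 923. The interaction with glucagon was called for 0 genes with all 8 arrays, 0 with quantile normalization and 699 with an intensity trend and robust prior.

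Of 143 named called genes, 0 reversed under any of the 10 settings, 13 kept their call in all of them and 130 lost it in at least 1. Since all called genes had the same sign in the 3 pairs, leaving out a pair could not reverse one. Leaving treatment out of the model or adding an intensity trend and robust prior does not alter the mean difference. The count of 0 reversed therefore gives the calls no further support. The glucagon + GW4064 pair left out removed 125 of these calls, no replicate block 85 and the glucagon pair left out 33. Since 1 pool made up each experiment, no setting tests the spread between pools, and signals near the filter level of 3.13 to 3.17 bound the size of a difference.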

Other observations

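Of the 383 genes called higher in experiment 2, 127 belong to at least 1 of the 40 lists other than the hypoxia targets, and of the 344 called lower, 51 do. The rest are outside those 40 lists. Adding the hypoxia targets brings the first count to 140.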
